A study of Mus musculus with 10 samples.

Results

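The myosin light chains and myosin binding proteins of striated muscle were followed in overloaded mouse plantaris, a fast muscle of the calf. The list held 10 genes, taken by symbol from the array annotation: the light chains Myl1, Myl2, Myl3, Myl4, Myl6b and Mylpf, the light chain kinase Mylk2, and the binding proteins Mybpc1, Mybpc2 and Mybph. Of these 10, 9 had a probe set with a single symbol, among 22180 genes measured in all, and each of the 9 had exactly 1 such probe set. Mybph, a smaller relative of the binding proteins C, had no probe set listed under its symbol and is not analysed here.

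Overload came from synergist ablation, an operation that removes the muscles working beside the plantaris. The groups were 3 d of overload with a platelet-derived growth factor (PDGF) inhibitor, 3 d of overload without it, 10 d of overload with the inhibitor, 10 d of overload without it, and no overload without inhibitor. All animals were male C57BL/6 mice, and neither their ages nor the name of the inhibitor appear in the labels used here. Each group had 2 pools, each made of equal RNA from 4 muscles, so the spread between pools is smaller than that between single muscles. No group received the inhibitor without overload. The labels do not say whether pools came from separate animals, so the p-values reflect variation among these pools alone, and part of it may be technical.

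Each myosin head carries an essential and a regulatory light chain on its neck, where they stiffen the lever arm. Myl1 is the essential light chain of fast fibres and Myl3 that of slow fibres and the heart ventricle. Myl4 is the essential light chain of embryonic skeletal muscle and the heart atrium, and Myl6b is an essential light chain described in slow muscle and in non-muscle tissue. Mylpf is the regulatory light chain of fast fibres and Myl2 that of slow fibres and the ventricle. Mylk2, the skeletal myosin light chain kinase, phosphorylates the regulatory chain when calcium and calmodulin activate it, which raises the force of fast muscle after repeated stimulation. Mybpc1 and Mybpc2, the slow-type and fast-type myosin binding proteins C, bind the thick filament and modulate how myosin heads reach actin.

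All levels below are log2 array values, each gene being read from its own probe set. Levels of different genes are not set against each other, apart from sums over marker lists, in which the brightest probe sets weigh most. The label of the tissue was checked on 12 markers of mature muscle fibres, among them the actin Acta1 and the creatine kinase Ckm, which lay between 9.89 and 12.37 log2 units in every pool. Across genes, pools of the same group had correlations of 0.989 to 0.992, and the medians of the arrays over all probe sets ran from 2.40 to 2.45. Over the genes measured, the medians followed the groups, at 2.99 and 3.00 without overload and 3.07 to 3.22 in the overloaded pools. The 10 d overload pools differed in 2 members, with Myl4 at 5.48 and 6.87 and Myl2 at 5.87 and 4.54 in pools 1 and 2. Within-group standard deviations (SD, n = 2 pools) over the 5 groups were at most 0.05 for Myl1, 0.09 for Mybpc1, 0.10 for Mybpc2 and 0.11 for Mylpf, against up to 0.98 for Myl4 and 0.94 for Myl2.

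**Figure D1:**
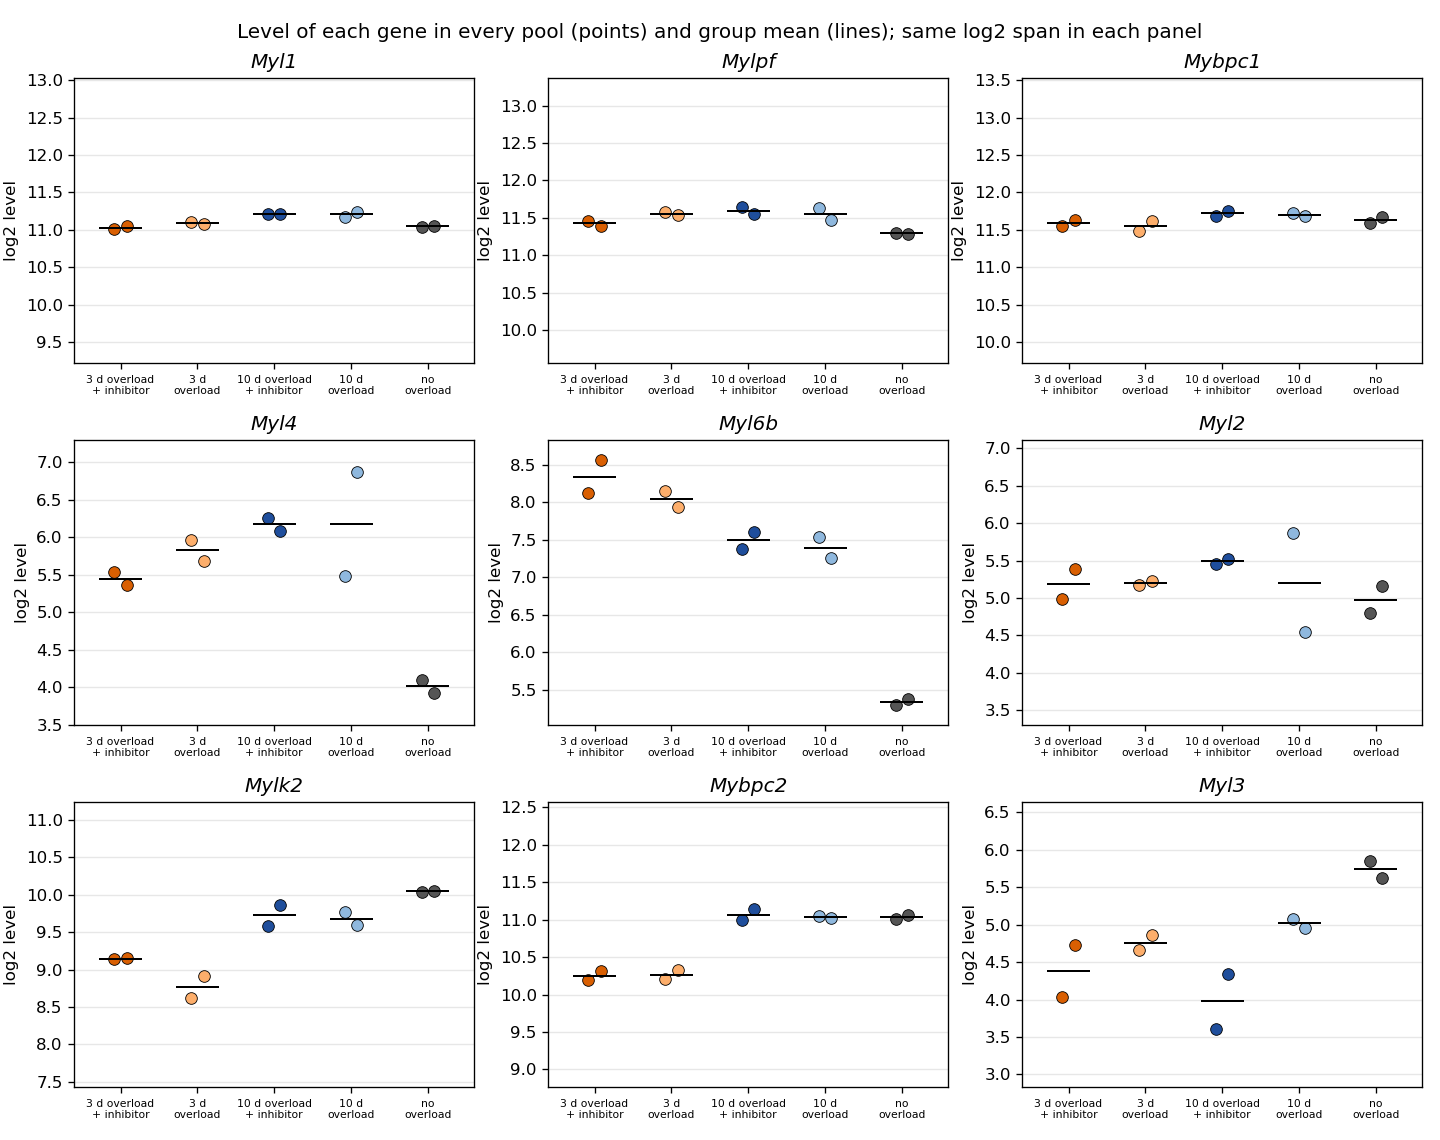
Log2 level of each measured gene (vertical axis, the same span of log2 units in every panel) in each pool (points) of the 5 groups (horizontal axis), with the mean of each group as a line. Myl4 and Myl6b were higher in all 8 overloaded pools than in both pools without overload, Mybpc2 was low in the 4 pools of 3 d only, and Myl1, Mylpf and Mybpc1 moved little.

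The first comparison asked how the family stood at 3 d of overload. Of 9 measured genes, Myl6b and Myl4 (2) rose and Mylk2, Mybpc2 and Myl3 (3) fell at 3 d of overload against no overload, and 4 did not pass. The threshold was a Benjamini-Hochberg adjusted p of 0.05 in limma, adjusted over all 22180 genes. The same call was made for 17.5% of all genes, 9.31% higher and 8.18% lower. With arrays shifted to a common median, that split over all genes turned to 1567 higher and 3295 lower, against 2066 and 1815. In 8 of the 9 genes the 3 d overload pools lay wholly above or below the pools without overload, as they did for 55.8% of all genes. The median change of the 9 was 0.04 log2 units, against -0.04 over all genes, since rises and falls were mixed. With the inhibitor, 3 d of overload against no overload gave 2 rises (Myl6b and Myl4) and 3 falls (Mylk2, Mybpc2 and Myl3) among the 9, where 14.2% of all genes were called, 7.71% higher and 6.51% lower (1711 and 1443 genes, or 1315 and 1991 at a common median). Pools did not overlap there for 6 of the 9 and for 53.2% of all genes. Both 3 d comparisons share the pools without overload.

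Among the essential light chains, Myl6b showed the largest change of the 9 genes at 3 d. Myl6b lay at 8.12 and 8.56 in the pools of 3 d overload with inhibitor, at 8.15 and 7.94 in those of 3 d overload, at 7.38 and 7.61 at 10 d with inhibitor and at 7.53 and 7.26 at 10 d, against 5.29 and 5.37 without overload. Every overloaded pool was above both pools without overload, and all 3 d pools were above all 10 d pools. Myl6b rose 6.57-fold at 3 d of overload (log2 2.72 ± 0.19, SE of the fit, adjusted p = 1.26e-04) and 8.05-fold at 3 d with the inhibitor (3.01 ± 0.19, adjusted p = 1.24e-04). At 10 d it was 4.18-fold higher than without overload (2.06 ± 0.19, adjusted p = 0.00186), and 4.47-fold higher with the inhibitor (2.16 ± 0.19, adjusted p = 0.00224). Its level at 10 d was below that at 3 d of overload by 0.65 log2 units, a difference that did not pass (adjusted p = 0.0815) but did pass without dim genes (adjusted p = 0.0368) and with a variance trend (adjusted p = 0.0157).

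Myl4, the embryonic and atrial essential light chain, was also higher in all overloaded pools. It lay at 5.53 and 5.36 at 3 d of overload with inhibitor, at 5.96 and 5.69 at 3 d of overload, at 6.26 and 6.09 at 10 d with inhibitor and at 5.48 and 6.87 at 10 d, against 4.10 and 3.91 without overload. The rise was 3.52-fold at 3 d of overload (log2 1.82 ± 0.37, adjusted p = 0.0102) and 2.71-fold with the inhibitor (1.44 ± 0.37, adjusted p = 0.0338). The rise was 4.49-fold at 10 d (2.17 ± 0.37, adjusted p = 0.0158) and 4.48-fold at 10 d with the inhibitor (2.16 ± 0.37, adjusted p = 0.0286). The change between 3 d and 10 d of overload was 0.35 ± 0.37 and not called (adjusted p = 0.676), with overlapping pools; it was 1.05 without 10 d overload pool 1, and then called (adjusted p = 0.0457), and -0.34 without pool 2. When single pools were left out, the rise at 3 d failed to pass without pool 1 of 3 d overload or pool 2 of the muscles without overload, with adjusted p of at most 0.0712. That at 10 d failed without either pool of the muscles without overload (at most 0.0716). With the inhibitor the rise passed in 2 of 10 omissions at each time (adjusted p up to 0.154 at 3 d and 0.191 at 10 d). Without 10 d overload pool 2 the 10 d change was 1.47, and without pool 1 it was 2.86. Fitted on the 10 d overload and no-overload groups alone, Myl4 was lost (adjusted p = 0.124).

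Both of these light chains have a promoter window from RefSeq, shown here because the genes were called higher in all 4 overload comparisons. The windows run over 250 bases before and 50 after the start of transcription, on the GRCm38.p6 mouse genome, read 5′ to 3′ on the gene's strand, with matches to the searched motifs in capitals.
Myl4, chr11:104550413-104550712, plus strand: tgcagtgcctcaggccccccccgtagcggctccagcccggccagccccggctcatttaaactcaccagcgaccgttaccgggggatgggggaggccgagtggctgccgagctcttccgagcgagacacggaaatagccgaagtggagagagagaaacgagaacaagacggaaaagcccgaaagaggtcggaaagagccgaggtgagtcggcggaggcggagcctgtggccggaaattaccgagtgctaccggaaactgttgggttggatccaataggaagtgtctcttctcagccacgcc
Myl6b, chr10:128498636-128498935, minus strand: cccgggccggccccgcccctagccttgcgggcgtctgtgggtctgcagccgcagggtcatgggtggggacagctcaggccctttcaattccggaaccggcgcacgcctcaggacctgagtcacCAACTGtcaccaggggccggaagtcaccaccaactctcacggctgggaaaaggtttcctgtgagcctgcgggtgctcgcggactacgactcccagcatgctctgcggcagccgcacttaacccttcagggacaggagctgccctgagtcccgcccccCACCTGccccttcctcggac
The motifs searched on both strands were the E-box CANNTG bound by MyoD-type factors and its form CAGCTG (which is also a CANNTG match), the MCAT element with letters CATTCC bound by TEAD factors, the TATA box with letters TATAAA, the MEF2 site, and the CArG box of serum response factor. The Myl4 window held none of them. It lies inside the span of the gene, which starts at position 104546017, and sequence at that outer end was not searched. The Myl6b window held 2 E-boxes, their leftmost bases lying 127 bases before and 31 bases after the start when the first transcribed base is 1. Windows of 300 bases were available for 9 of the 10 genes, all but Mylk2, with 2 for Myl2. Of the 10 windows, 9 held CANNTG and 6 held CAGCTG, against 72.3% and 16.3% of 32851 mouse promoter windows. The MCAT element was in 4 of the 10 (14.7% of all windows), the TATA box in 3 (13.6%), the CArG box in 1 (1.63%) and the MEF2 site in 0 (3.19%). A match is a run of letters in the window, and binding was not measured. In the RefSeq order of protein-coding genes on chromosome 10, Myl6b lies next to Myl6, the main light chain of non-muscle and smooth muscle myosin.

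Some markers of macrophages, satellite cells and fibroblasts were also higher in overloaded muscle, but their courses from 3 d to 10 d differed. Between 10 d and 3 d of overload the median change was -1.15 for macrophage, -0.52 for satellite cell and 0.42 for fibroblast markers. Myl4 changed by 0.35 and Myl6b by -0.65 there. All 12 macrophage and monocyte markers rose at 3 d of overload (11 with the inhibitor), and 11 of 12 rose at 10 d (7 with the inhibitor). The log2 of their summed linear levels was 11.43 to 11.66 at 3 d with inhibitor, 11.79 to 11.99 at 3 d, 9.89 to 10.06 at 10 d with inhibitor and 10.22 to 10.80 at 10 d, against 8.51 to 8.80 without overload. Of 8 satellite cell and myoblast markers, 5 rose at 3 d (4 with the inhibitor) and 3 at 10 d (2 with the inhibitor), and their summed level was 10.09 to 10.39, 10.16 to 10.40, 10.04 to 10.23 and 9.66 to 10.11 in the same order of groups, against 8.14 to 8.47 without overload. That sum is carried mostly by Ncam1 (7.50 to 9.90) and Mymk, and the median change of the 8 was 1.01 at 3 d and 1.09 with the inhibitor, but 0.18 at 10 d and 0.86 at 10 d with the inhibitor. Mymk, which drives myoblast fusion, rose 21.2-fold at 3 d and 15.3-fold at 10 d. Of 8 fibroblast markers, 5 rose at 3 d (3 with the inhibitor) and 7 at 10 d (3 with the inhibitor), with a summed level of 12.13 to 12.15, 12.59 to 12.63, 12.10 to 12.12 and 12.62 to 13.37, against 11.29 to 11.35. Of 8 smooth muscle and pericyte markers 1 rose and 1 fell at 3 d, also with the inhibitor, and 0 were called at 10 d, while 0 of 5 endothelial markers were called in any comparison. In pooled whole muscle, more cells of a type and more RNA per cell cannot be told apart, and the part of these cells in the rises of Myl4 and Myl6b was not tested. Of 6 heart markers, none rose in any overload group, and the atrial light chain Myl7 lay at 1.05 to 1.73 log2 units in all 10 pools.

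The kinase and the fast-type binding protein shared another course, low at 3 d and higher at 10 d. Mylk2 lay at 9.14 and 9.15 at 3 d of overload with inhibitor, at 8.62 and 8.91 at 3 d of overload, at 9.58 and 9.86 at 10 d with inhibitor and at 9.77 and 9.60 at 10 d, against 10.04 and 10.05 without overload. No overloaded pool reached the level of the pools without overload, and no 3 d pool reached that of a 10 d pool. Mylk2 fell 2.43-fold at 3 d (log2 -1.28 ± 0.16, adjusted p = 0.00111) and 1.86-fold at 3 d with the inhibitor (-0.90 ± 0.16, adjusted p = 0.00719). At 10 d its changes of -0.36 ± 0.16 without and -0.32 ± 0.16 with the inhibitor did not pass (adjusted p = 0.243 and 0.391). It was 1.89-fold higher at 10 d than at 3 d of overload (0.92 ± 0.16, adjusted p = 0.0152).

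Mybpc2 was lower at 3 d, and at 10 d its pools overlapped those without overload. It lay at 10.19 and 10.31 at 3 d of overload with inhibitor, at 10.21 and 10.33 at 3 d of overload, at 10.99 and 11.14 at 10 d with inhibitor and at 11.05 and 11.03 at 10 d, against 11.01 and 11.06 without overload. The 4 pools of 3 d lay together, below all other pools. Mybpc2 fell 1.70-fold at 3 d (log2 -0.77 ± 0.13, adjusted p = 0.00444) and 1.73-fold with the inhibitor (-0.79 ± 0.13, adjusted p = 0.00533), and both calls held whichever pool was left out. At 10 d the change was -0.00 ± 0.13, with a 95% interval of -0.30 to 0.29, and with the inhibitor 0.03 ± 0.13 (-0.26 to 0.33). It was 1.70-fold higher at 10 d than at 3 d of overload (0.77 ± 0.13, adjusted p = 0.0147). Between 10 d and 3 d of overload, Mylk2 and Mybpc2 were the 2 of 9 genes called, both higher, where 6.08% of all genes were called, 2.7% higher and 3.38% lower. Both calls need the spread of all 5 groups: fitted on these 2 groups alone they were lost (adjusted p = 0.0856 for Mylk2 and 0.0870 for Mybpc2), and without 3 d overload pool 1 neither passed. Mylk2 was also lost without 10 d overload pool 1 (adjusted p up to 0.0968), and Mybpc2 without that pool or without 3 d overload pool 2 (up to 0.0910).

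Mybpc1, the slow-type counterpart, had no called change. It lay at 11.55 and 11.64 at 3 d of overload with inhibitor, at 11.49 and 11.61 at 3 d of overload, at 11.69 and 11.76 at 10 d with inhibitor and at 11.72 and 11.68 at 10 d, against 11.59 and 11.67 without overload. Its 3 d pools overlapped those without overload. The change at 3 d was -0.08 ± 0.13 (95% interval -0.37 to 0.20) and that at 10 d 0.07 ± 0.13 (-0.22 to 0.36). In differences chosen after the values were seen, taken within each pool and set to 0 at the mean without overload, Mybpc1 minus Mybpc2 was 0.77 and 0.73 at 3 d with inhibitor and 0.68 and 0.69 at 3 d, against -0.02 and 0.02 without overload. It was 0.10 and 0.02 at 10 d with inhibitor and 0.08 and 0.06 at 10 d. Within an array such a difference shows unequal change of the pair, and is unaffected by how arrays are scaled.

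Of 12 mature fibre markers, the myoglobin Mb (log2 -0.52 ± 0.15) and the calcium release channel Ryr1 (-0.47 ± 0.12) fell at 3 d, and the median of the 12 was -0.20. With the inhibitor at 3 d, Mb and the calsequestrin Casq1 fell, with a median of -0.21. The log2 of the summed level of these markers was 15.04 to 15.11 at 3 d with inhibitor, 15.09 to 15.11 at 3 d, 15.33 to 15.35 at 10 d with inhibitor and 15.32 at 10 d, against 15.26 without overload. The part of a changed share of fibre RNA in the falls was not tested.

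Myl3, the slow essential light chain, was lower in all overloaded pools. It lay at 4.04 and 4.73 at 3 d of overload with inhibitor, at 4.66 and 4.86 at 3 d of overload, at 3.61 and 4.35 at 10 d with inhibitor and at 5.08 and 4.96 at 10 d, against 5.85 and 5.63 without overload. The gap to the pools without overload was smallest for 10 d without inhibitor. Myl3 fell 1.97-fold at 3 d (log2 -0.98 ± 0.28, adjusted p = 0.0443), 2.56-fold at 3 d with the inhibitor (-1.36 ± 0.28, adjusted p = 0.0145) and 3.39-fold at 10 d with the inhibitor (-1.76 ± 0.28, adjusted p = 0.0224). The change at 10 d without inhibitor, -0.72 ± 0.28, did not pass (adjusted p = 0.194). The call at 3 d was lost without any of 6 pools, namely either pool of 3 d overload, of 10 d overload or of no overload (adjusted p up to 0.192). With the inhibitor it was lost at 3 d without inhibitor pool 1 or no-overload pool 1 (up to 0.0954), and at 10 d without inhibitor pool 1 or either no-overload pool (up to 0.160). Fitted on the 10 d inhibitor and no-overload groups alone, the last was lost (adjusted p = 0.0937).

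Myl2, the slow regulatory light chain, had no called change. It lay at 4.99 and 5.39 at 3 d of overload with inhibitor, at 5.17 and 5.22 at 3 d of overload, at 5.46 and 5.52 at 10 d with inhibitor and at 5.87 and 4.54 at 10 d, against 4.79 and 5.16 without overload. The pools of 10 d overload spanned the values of all other groups. Its largest change against no overload was 0.51 ± 0.37, at 10 d with the inhibitor (95% interval -0.32 to 1.35). That interval holds a fall as well as a larger rise, so the size of any Myl2 change is poorly determined here. Its 10 d change was -0.44 without 10 d overload pool 1 and 0.89 without pool 2, against 0.23 with both.

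The promoters of Mybpc2 and Myl3, the 2 genes with a RefSeq window that were called lower in both 3 d comparisons, are shown in the same way.
Mybpc2, chr7:44524620-44524919, minus strand: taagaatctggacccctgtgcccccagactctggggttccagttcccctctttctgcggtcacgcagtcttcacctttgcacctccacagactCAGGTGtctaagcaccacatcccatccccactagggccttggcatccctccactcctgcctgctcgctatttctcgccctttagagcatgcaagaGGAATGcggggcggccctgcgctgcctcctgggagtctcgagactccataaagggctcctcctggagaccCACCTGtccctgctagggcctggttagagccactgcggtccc
Myl3, chr9:110763428-110763727, plus strand: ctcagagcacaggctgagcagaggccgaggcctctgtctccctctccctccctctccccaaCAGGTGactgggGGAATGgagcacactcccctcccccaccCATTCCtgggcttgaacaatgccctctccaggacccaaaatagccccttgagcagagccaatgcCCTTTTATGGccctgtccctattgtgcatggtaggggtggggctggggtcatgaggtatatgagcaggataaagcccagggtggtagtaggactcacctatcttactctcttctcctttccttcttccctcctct
The Mybpc2 window held 2 E-boxes and 1 MCAT match, and the Myl3 window 1 E-box, 2 MCAT matches and 1 CArG box, the only CArG match among the 10 windows.

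The light chains of fast fibres stayed close to their level without overload on these arrays. Mean levels of 11.12 for Myl1 and 11.49 for Mylpf lay near the highest array value, 12.71. Whether changes are compressed at such levels was not tested, for these genes or for Mybpc1 (mean 11.64). Myl1 lay at 11.01 and 11.06 at 3 d of overload with inhibitor, at 11.10 and 11.08 at 3 d of overload, at 11.21 and 11.21 at 10 d with inhibitor and at 11.17 and 11.24 at 10 d, against 11.04 and 11.06 without overload. The 10 d pools were above all others, and the whole range over 10 pools was 0.23 log2 units. Its change at 10 d was 0.16 ± 0.12 (95% interval -0.11 to 0.43) and at 10 d with the inhibitor 0.16 ± 0.12 (-0.11 to 0.43), neither called.

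Mylpf lay at 11.46 and 11.39 at 3 d of overload with inhibitor, at 11.57 and 11.54 at 3 d of overload, at 11.64 and 11.55 at 10 d with inhibitor and at 11.64 and 11.48 at 10 d, against 11.30 and 11.28 without overload. Every overloaded pool was above both pools without overload. The changes were 0.13 ± 0.13 and 0.26 ± 0.13 at 3 d with and without inhibitor, and 0.30 ± 0.13 and 0.26 ± 0.13 at 10 d with and without it, with adjusted p between 0.213 and 0.579. When the expected variance was allowed to depend on the mean level, Mylpf passed as higher at 3 d (adjusted p = 0.0101), at 10 d (0.0225) and at 10 d with inhibitor (0.0171), so its call depends on how the spread is estimated. With arrays shifted to a common median over genes, which lowers the changes at 3 d and 10 d by 0.19 and 0.17, the small changes of Myl1 at both times (-0.15 and -0.01) and of Mybpc1 at 10 d (-0.10) took a negative sign and stayed uncalled, and Mylpf kept 0.07 and 0.10.

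At 10 d, 2 of the 9 genes rose against no overload, Myl4 and Myl6b, and 0 fell, where 5.13% of all genes were called, 3.9% higher and 1.23% lower (865 and 273 genes, or 678 and 896 at a common median). Pools did not overlap for 7 of the 9 and for 50.2% of all genes. With the inhibitor at 10 d, Myl4 and Myl6b rose and Myl3 fell, where 1.56% of all genes were called, 1.13% higher and 0.428% lower. Pools did not overlap there for 8 of the 9 and for 46.6% of all genes. Medians of the 9 were 0.16 in each of these comparisons, against -0.04 and -0.02 over all genes.

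**Figure D2:**
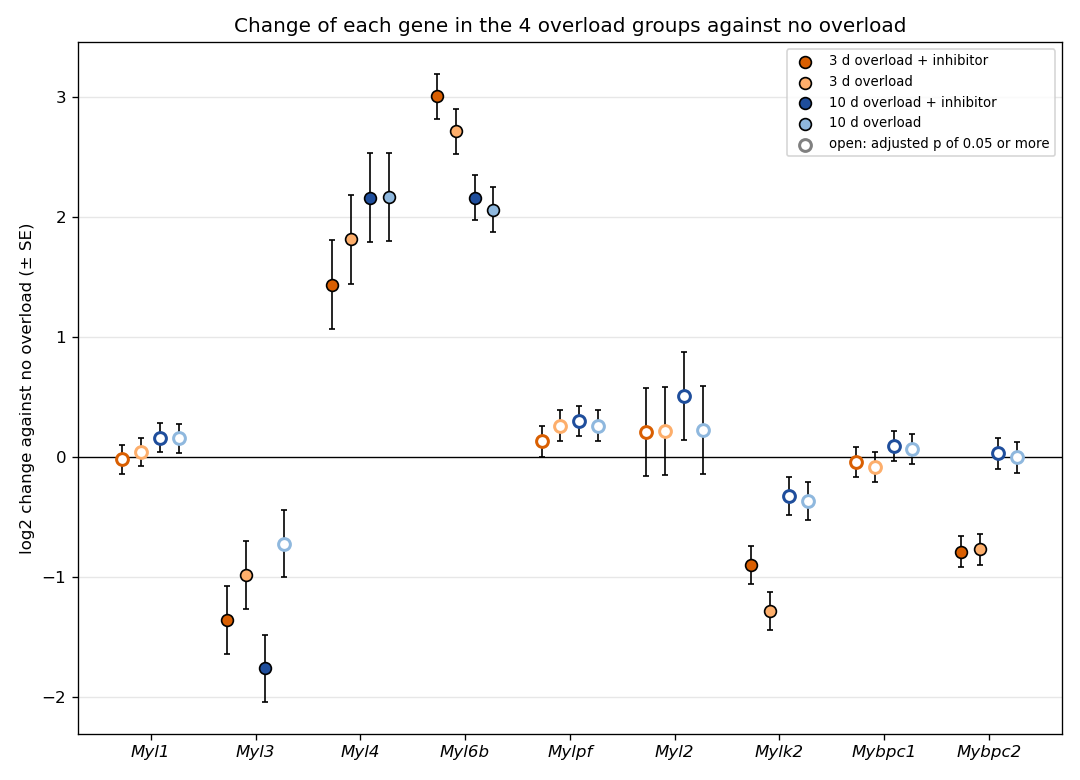
Log2 change against no overload (vertical axis, with SE of the limma fit as bars) of each measured gene (horizontal axis) in the 4 overload groups, filled where the adjusted p was under 0.05 and open where it was not. Myl4 and Myl6b are filled and above 0 in all 4 groups, Mylk2 and Mybpc2 are filled and below 0 at 3 d alone, and Myl3 is filled in 3 of 4 groups.

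The next question was whether the PDGF inhibitor changed the family during overload. None of the 9 genes was called at 3 d of overload with against without inhibitor, where 0% of all genes were called. At 10 d none of the 9 was called either, where 0.104% of all genes were called, and for the inhibitor averaged over both times none of the 9 and 0.289% of all genes. The difference of the inhibitor's effect between 10 d and 3 d was called for none of the 9 and 0% of all genes. At an unadjusted p under 0.05 in limma, 1 of the 9 passed at 3 d (Mylk2), 1 at 10 d and 1 in the average (Myl3 in both), and 0 in the difference of effects. With a variance trend in limma, 0 of the 9 were called in each of these 4 comparisons. Pools with and without inhibitor did not overlap for 4 of the 9 at 3 d and 1 at 10 d, against 40% and 41.2% of all genes.

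Myl3 was 2.06-fold lower with the inhibitor at 10 d (log2 -1.04 ± 0.28, 95% interval -1.68 to -0.40, adjusted p = 0.233), with both inhibitor pools (3.61 and 4.35) below both pools without it (5.08 and 4.96). At 3 d its difference was -0.37 ± 0.28 with overlapping pools, and the average over both times was -0.71 ± 0.20 (adjusted p = 0.184). The difference between these effects was -0.66 ± 0.40 (adjusted p = 0.819). Myh7, the slow myosin heavy chain that Myl3 accompanies in slow fibres, lay at 4.68 and 5.48 at 10 d with inhibitor, against 7.08 and 6.36 at 10 d without it (log2 -1.65 ± 0.41, adjusted p = 0.206). Myh7 was named after its values were seen, and not all slow-type genes were lower in that comparison. The differences of Myl2 (0.29 ± 0.37) and Mybpc1 (0.02 ± 0.13) were not negative. The heavy chain Myh7b lay at 3.49 and 3.40 at 10 d with inhibitor, against 3.14 and 2.70 without it. Mylk2 was 1.30-fold higher with the inhibitor at 3 d (0.38 ± 0.16, 95% interval 0.02 to 0.74, adjusted p = 0.524), its inhibitor pools at 9.14 and 9.15 against 8.62 and 8.91 without it, and at 10 d its difference was 0.04 ± 0.16.

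For the 4 genes with the smallest spread, Myl1, Mylpf, Mybpc1 and Mybpc2, the differences with the inhibitor lay between -0.13 and 0.04 at 3 d, and their 95% intervals between -0.42 and 0.33. At 10 d these differences lay between 0.01 and 0.04, with intervals between -0.27 and 0.33. With minus without inhibitor, Myl4 differed by -0.38 ± 0.37 at 3 d and -0.00 ± 0.37 at 10 d, and Myl6b by 0.29 ± 0.19 at 3 d and 0.10 ± 0.19 at 10 d. At 10 d the Myl4 difference turned with the overload pool kept, to 0.69 without pool 2 and -0.70 without pool 1. The intervals were wide, reaching -1.22 to 0.46 for Myl4 and -0.14 to 0.72 for Myl6b at 3 d. Differences anywhere within these bounds are compatible with the data from 2 pools a group. None of the marker lists for fibres, macrophages, fibroblasts, satellite cells, smooth muscle, heart or endothelium had a gene called in these comparisons. Medians with minus without inhibitor were nevertheless -0.51 at 3 d and -1.03 at 10 d for the fibroblast markers, and -0.51 and -0.55 for the macrophage markers. For the satellite cell and myoblast markers they were -0.03 and 0.34, and for the other lists between -0.20 and 0.15. Over all genes they were 0.03 and 0.01. The part of these cells in the differences of the 9 genes was not tested.

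**Figure D3:**
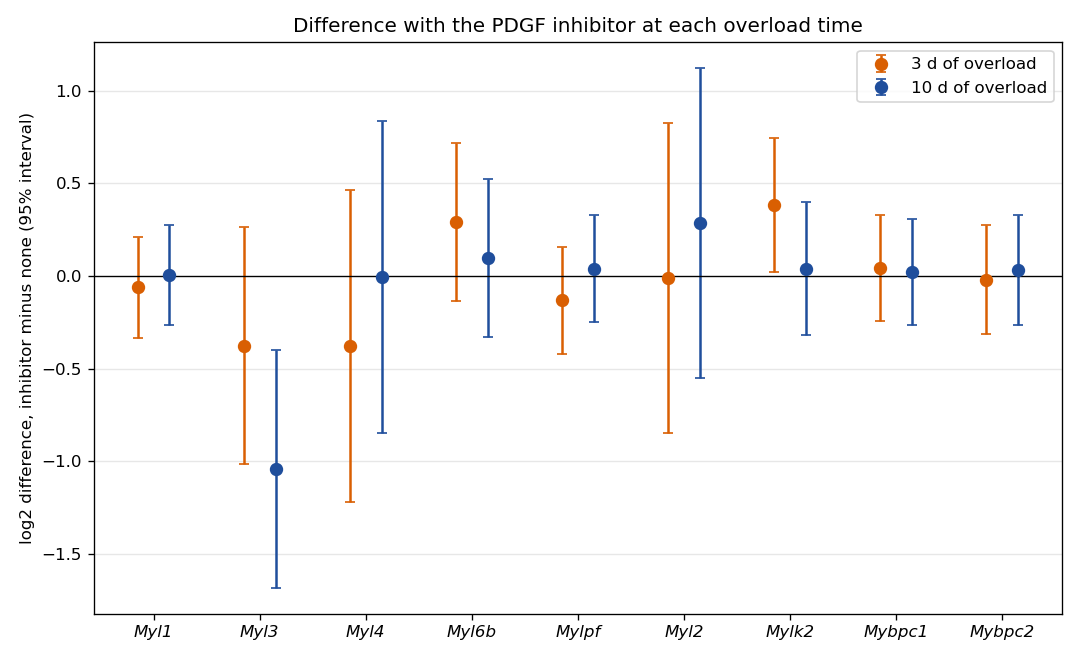
Log2 difference with minus without inhibitor (vertical axis, 95% intervals of the limma fit as bars) of each measured gene (horizontal axis) at 3 d and at 10 d of overload. Intervals leave out 0 for Mylk2 at 3 d and Myl3 at 10 d, neither with an adjusted p under 0.05.

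The slow-type genes differed in their course relative to their fast-type counterparts, as a description with no test. Set to 0 at the mean without overload, Myl3 minus Myl1 was -1.66 and -1.02 at 3 d with inhibitor, -1.14 and -0.91 at 3 d, -2.29 and -1.56 at 10 d with inhibitor and -0.78 and -0.97 at 10 d, against 0.12 and -0.12 without overload. All 8 overloaded pools were below both pools without overload. Myl2 minus Mylpf lay between -0.62 and 0.55 in overloaded pools, against -0.20 and 0.20 without overload, and the groups overlapped. Mybpc1 minus Mybpc2 was positive and at least 0.68 in each 3 d pool, and at most 0.10 at 10 d.

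**Figure D4:**
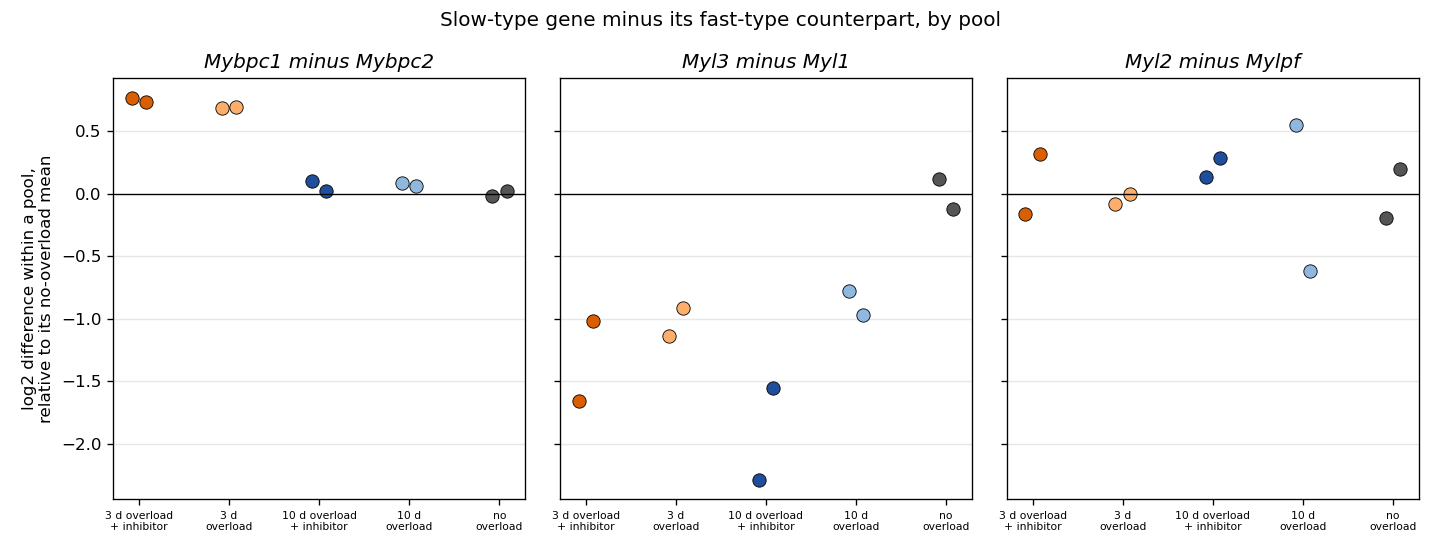
Difference in log2 level between a slow-type gene and its fast-type counterpart within each pool (points), set to 0 at the mean of the pools without overload (vertical axis, log2 units), by group (horizontal axis). Mybpc1 minus Mybpc2 is raised at 3 d alone, Myl3 minus Myl1 is below 0 in all 8 overloaded pools, and Myl2 minus Mylpf overlaps between groups.

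The other genes of the pathway were counted in lists chosen with earlier results of these data known. Among other light chains with their kinases and phosphatases, 16 of 20 listed genes were measured, and 3 rose and 4 fell at 3 d of overload (median 0.00, against -0.04 over all genes). Mylk4, another myosin light chain kinase of striated muscle, had the largest change. Like Mylk2 it was low at 3 d and higher at 10 d, but unlike Mylk2 it did not fall less at 3 d with the inhibitor. It lay at 8.78 and 9.26 at 3 d with inhibitor, at 8.98 and 9.67 at 3 d, at 10.31 and 10.63 at 10 d with inhibitor and at 10.93 and 10.73 at 10 d, against 11.13 and 11.07 without overload. It fell 3.43-fold at 3 d (log2 -1.78 ± 0.25, adjusted p = 0.00202) and 4.22-fold with the inhibitor (-2.08 ± 0.25, adjusted p = 0.00150), and was 2.84-fold higher at 10 d than at 3 d of overload (adjusted p = 0.0143). Myl12a, a regulatory light chain of non-muscle myosin, rose 3.41-fold at 3 d and 3.44-fold at 10 d, and its pools without overload were unequal, at 6.28 and 7.44. Mylip, a ubiquitin ligase that binds the regulatory light chain, fell by 0.83 ± 0.16 at 3 d, and Ppp1r12a, the targeting subunit of myosin phosphatase, rose by 0.70 ± 0.15. With the inhibitor at 3 d, Myl12a (log2 1.36) and Ppp1r12a (0.61) rose, and Mylk4, the light chain Myl10 (-1.62), the atrial Myl7 and Mylip (-0.59) fell, 6 of the 16 in all. Myl7 lay below the median of every array in all 10 pools, and Myl10 at 2.21 and 2.93 at 3 d with inhibitor, so the sizes of these falls are poorly determined. At 10 d Myl12a rose and Myl10 fell (-1.49), and with the inhibitor Myl12a rose (1.97). Between 10 d and 3 d of overload, Mylk4 and Mylip (0.98 ± 0.16) were the 2 called, both higher, and 0 of the 16 were called for the inhibitor.

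Of 9 sarcomeric myosin heavy chains, 2 rose and 3 fell at 3 d. Embryonic Myh3 rose by 2.64 ± 0.34 and perinatal Myh8 by 2.31 ± 0.53, while Myh13 (-2.68 ± 0.44), cardiac Myh6 (-1.41 ± 0.38) and Myh7 (-1.40 ± 0.41) fell. Myh8 without overload (2.29 and 2.70), Myh6 at 3 d (2.26 and 2.33) and Myh13 at 3 d (2.63 and 2.62) lay under the dim limit of 3 log2 units, close to the array medians, so the sizes of their changes are poorly determined. At 10 d Myh3 (4.10 ± 0.34) and Myh8 (4.13 ± 0.53) rose and Myh13 (-2.22 ± 0.44) fell. With the inhibitor, Myh3 and Myh8 rose at 3 d (2.38 and 2.18) and 10 d (3.18 and 3.45), and Myh13 fell at 3 d (-2.65). Heavy chain genes are similar in sequence, and cross-hybridisation was not tested. Between 10 d and 3 d of overload Myh3 was higher (1.45 ± 0.34), and Myh7 was 4.68-fold higher (log2 2.23 ± 0.41, adjusted p = 0.0195), while Myl3 changed by 0.26 ± 0.28 in the same comparison. The fast heavy chains Myh1, Myh2 and Myh4 lay between 11.46 and 12.07 in every pool, and none passed in any comparison. Of 10 measured thick filament, M band and myosin chaperone genes, Myom3, an M band protein, and the chaperone Hsp90aa1 rose at 3 d, by 0.94 ± 0.18 and 1.08 ± 0.23, and 0 fell. Both also rose with the inhibitor at 3 d (0.94 and 1.19), and Myom3 rose at 10 d (0.87) and at 10 d with the inhibitor (1.17). At 10 d against 3 d of overload Hsp90aa1 was lower (-1.24 ± 0.23) and the M band protein Myom2 higher (0.54 ± 0.13). Mybpc3, the cardiac member of the binding protein C family, lay at 1.14 to 1.62 in all pools.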

How the data were processed

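RNA of 10 pools (5 groups of 2, 4 muscles a pool) was measured on Mouse Gene 2.1 ST arrays. The authors deposited log2 expression values for 41345 probe sets. RMA, oligo and limma are named in the submitters' processing notes, without versions. RMA corrects background and quantile-normalizes arrays, which compresses changes of dim genes. Scan batches were not given. Of the probe sets, 23521 had exactly 1 symbol in the array annotation (1814 had several, 16010 were not listed), giving 22180 genes, the brightest probe set standing for a gene. No gene was filtered out. The labels name more than 1 labelling kit.

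Genes were fitted in limma 3.58.1 (R 4.3.3) with 1 mean per group over all 10 arrays (5 residual and 3.58 prior degrees of freedom), and 9 comparisons were adjusted by Benjamini-Hochberg over all genes, so each adjusted p comes from a model fitted across all genes. Exact permutation of 2 against 2 pools cannot give a two-sided p below 0.333. The number of arrays limits the precision. The fit was tested on simulated data. Members, lists and tests were chosen with earlier results of these data known. All 10 listed genes were to be named, with up to 4 called genes of each list and comparison having the largest change; other list genes were named after their values were seen. Promoters are from RefSeq (GRCm38.p6). Alternatives were a common array median, dropping genes with a mean under 3 log2 units, averaging probe sets, fitting only the groups compared, a variance trend, and leaving out each array.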

Additional observations from a re-analysis of the deposited data

How the results depend on the processing

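Counts of the 9 genes called were within 1.5 times of those reported when arrays were shifted to a common median, dim genes left out, probe sets averaged or a variance trend fitted. On the groups compared alone, 1 gene was called at 10 d of overload against none and 0 between 10 d and 3 d. Leaving out single arrays gave 3 to 5 genes at 3 d of overload against none, 3 to 5 with the inhibitor, 1 to 2 at 10 d, 1 to 3 at 10 d with the inhibitor, 0 to 2 between 10 d and 3 d, and 0 in the 4 inhibitor comparisons. The calls of Myl6b against no overload, and of Mylk2 and Mybpc2 at 3 d, held in all 10 omissions, with and without inhibitor. The lowest count at 3 d, 3, came without 3 d overload pool 1 or no-overload pool 2, that with the inhibitor, 3, without inhibitor pool 1 or no-overload pool 1, and that of 1 at 10 d without either no-overload pool. At 10 d with the inhibitor 1 gene was called without either no-overload pool or inhibitor pool 1, and between 10 d and 3 d 0 without 3 d overload pool 1, 1 without its partner and 1 without 10 d overload pool 1. No paired analysis was possible because the labels give no replicate numbers shared between groups. A common median moved the split over all genes at 10 d with the inhibitor to 224 higher and 137 lower, against 250 and 95 as reported, for the inhibitor at 10 d to 7 and 10, against 5 and 18, and averaged to 21 and 31, against 14 and 50. Calls over all genes at 10 d were 1138 as reported, 1906 without dim genes, 31 on the groups compared and 2097 with a variance trend. At 10 d with the inhibitor they were 345, 813, 102 and 1069 in the same order, and between 10 d and 3 d 1348, 2290, 202 and 2450. For the inhibitor at 10 d they were 23, 50, 3 and 180, and averaged over both times 64, 230 without dim genes and 465 with a variance trend. At 3 d with the inhibitor 1933 genes were called on the groups compared, against 3154, and for the inhibitor at 3 d 4 without dim genes and 15 with a variance trend, against 0. Leaving out single arrays, the counts over all genes were 2146 (without 3 d overload pool 1) to 3850 at 3 d, 1343 (without 3 d inhibitor pool 1) to 3178 with the inhibitor, 259 (without no-overload pool 1) to 1232 at 10 d, 31 (without 10 d inhibitor pool 1) to 486 with the inhibitor, and 218 (without 3 d overload pool 1) to 1096 between 10 d and 3 d. For the inhibitor they reached 180 at 10 d and 341 averaged without 10 d overload pool 1, and 7 at 3 d and 14 for the difference of effects without 3 d overload pool 2, with a lowest count of 0 in each.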

Other observations

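The genes whose course over the 10 arrays was closest to each member were found among 8956 other named genes with a mean of at least 4 log2 units, by the root mean square (RMS) difference of values set to each gene's own mean. Closest to Mybpc1 were Ttn, the giant thick filament protein titin (RMS difference 0.0377 log2 units), Sgcb (0.0403), a sarcoglycan of the fibre membrane, and Bod1l (0.0436). The gene closest to Myl1 was Nedd4, a ubiquitin ligase (0.0287), followed by Lamp1 and Huwe1. Mylpf was followed most closely by Lyrm2 (0.0597), Aebp2 and Stom. These 3 members varied little over the arrays (own RMS of 0.0776 for Mybpc1, 0.0796 for Myl1 and 0.121 for Mylpf), so other genes that varied little also come close to them.

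Among the genes that moved, Mylk2 was followed most closely by Ogfod3 (0.0716), Aldh6a1 (0.0786), a mitochondrial enzyme of valine breakdown, and Scrn3, where Mylk2 itself varied by an RMS of 0.467 about its mean. Mybpc2 was closest to Npr2 (0.0783), a natriuretic peptide receptor, Arl3 and Trim24, and its own RMS was 0.390. Myl3 was closest to Esrra (0.237), a nuclear receptor of mitochondrial genes, Plin3 and the transferrin receptor Tfrc, and its own RMS was 0.641. Myl4 was closest to the chemokine Ccl8 (0.240), Sfrp1 and the complement factor Cfb, and its own RMS was 0.868. For Myl6b, Serpinb8 (0.280), the replication gene Mcm6 (0.345) and Ttc9 came closest, and its own RMS was 1.06. Myl2 was closest to Insyn1 (0.191), Cep19 and Ccdc126, against an own RMS of 0.361. Among members, Myl1 and Mybpc1 were each other's nearest (0.0650), and so were Mylk2 and Mybpc2 (0.197). Myl4 and Myl6b were also each other's nearest, but at 0.776, where the median difference of Myl4 to all candidates was 0.903. These are descriptions over 10 arrays of 5 shared groups.

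The only probe set of Myl6 with a single symbol, next to Myl6b on the chromosome, lay between 1.93 and 3.91 log2 units, and its 10 d overload pools were at 3.79 and 1.93. Myl12a had 2 such probe sets, with mean levels of 8.24 and 4.97 log2 units. In the 10 d overload group, pool 2 was above pool 1 in the developmental genes Myl4, Myh3 (9.11 and 8.13) and Myh8 (7.51 and 5.75), and below it in the slow genes Myl2 and Myh7 (6.36 and 7.08). Pool 2 was also above pool 1 in all 12 macrophage markers and all 8 fibroblast markers, and in 7 of 8 satellite cell and myoblast markers. It was above in 6 of 12 fibre, 3 of 8 smooth muscle and pericyte, 3 of 6 heart and 1 of 5 endothelial markers. The median over all genes was 3.22 in pool 2 and 3.11 in pool 1.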
